A study of Mus musculus with 8 samples.

Results

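The genes described here are 9 transcription factors and cofactors of blood stem cells: Tal1, Lyl1, Lmo2, Ldb1, Gata2, Fli1, Erg, Myb and Etv6. Most belong to the group called the heptad, and Ldb1, Myb and Etv6 were added as a bridging partner and further regulators of stem and progenitor cells. They were taken by gene symbol from an array table of 22180 named genes, using for each gene the probe set annotated with that symbol alone. Myb had 2 such probe sets, and the one with the higher mean over all arrays was kept. All 9 genes passed the filter on low values, which left 17576 genes in the tests.

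The samples were 8 microarrays of sorted bone marrow cells (C57/Bl6 mice, 8 weeks old by the labels), in a study of where the chromatin remodeler Chd7 is expressed. The populations were MPP (multipotent progenitors, CD48+CD150-CD34+, 3 arrays), ST-HSC (short-term hematopoietic stem cells, CD48-CD150+CD34+, 3 arrays) and LT-HSC (long-term hematopoietic stem cells, CD48-CD150+CD34-, 2 arrays, replicates 1 and 3). All were negative for lineage markers and positive for Sca1 and Kit. The sample descriptions state no treatment, whereas the protocol shared by all samples describes DMSO for 2 hours, then transplantation, isolation from primary recipients after 1 year and from secondary recipients after 3 months. Both statements apply to every population alike, so which of them holds does not separate the groups. Nothing in the labels ties each array to its own animal, so the p-values reflect the spread between samples alone, and that spread may be technical.

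As background, the heptad factors bind DNA together at many regulatory elements of blood stem cells. TAL1 and LYL1 are basic helix-loop-helix proteins that pair with E proteins on E-box sequences, GATA2 binds GATA sequences, and FLI1 and ERG are ETS factors. LMO2 does not bind DNA itself but joins the helix-loop-helix and GATA proteins, and LDB1 binds LMO2 and can dimerise, which links such complexes. MYB and the ETS-family repressor ETV6 are also needed to maintain adult hematopoiesis.

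The factors are known to act on one another's genes, so the stretch of DNA before the start sites of the members was searched for their binding letters. RefSeq (GRCm38.p6) gave 13 windows for 7 of the 9 genes, 1 per annotated start, and the 250 bases before each start were searched on both strands. The 4 windows that held any match are printed here, because they carry letters that these proteins recognise. They are Tal1 at chr4:115056176-115056425 (plus strand), Lyl1 at chr8:84701207-84701456 (plus strand), Ldb1 at chr19:46037071-46037320 (minus strand) and Erg at chr16:95459349-95459598 (minus strand). Capitals mark every match to GATAA (GATA factors), CAGNTG (an E-box), CCGGAAG (ETS factors), TGTGGT (RUNX factors) or AACNGTT (MYB), on either strand.
Tal1: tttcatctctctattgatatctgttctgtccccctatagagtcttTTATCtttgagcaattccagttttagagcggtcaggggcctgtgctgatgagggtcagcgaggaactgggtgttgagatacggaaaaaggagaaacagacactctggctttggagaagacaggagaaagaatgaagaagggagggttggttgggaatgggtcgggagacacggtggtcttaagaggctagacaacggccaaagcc
Lyl1: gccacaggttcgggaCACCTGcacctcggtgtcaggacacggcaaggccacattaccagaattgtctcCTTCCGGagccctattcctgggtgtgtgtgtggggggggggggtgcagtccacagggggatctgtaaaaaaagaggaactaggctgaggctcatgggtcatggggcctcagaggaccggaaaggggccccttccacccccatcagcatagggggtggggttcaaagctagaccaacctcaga
Ldb1: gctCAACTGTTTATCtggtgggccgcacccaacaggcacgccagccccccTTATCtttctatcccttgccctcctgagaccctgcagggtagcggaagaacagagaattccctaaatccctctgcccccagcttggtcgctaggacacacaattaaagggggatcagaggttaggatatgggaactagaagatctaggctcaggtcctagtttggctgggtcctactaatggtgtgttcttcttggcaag
Erg: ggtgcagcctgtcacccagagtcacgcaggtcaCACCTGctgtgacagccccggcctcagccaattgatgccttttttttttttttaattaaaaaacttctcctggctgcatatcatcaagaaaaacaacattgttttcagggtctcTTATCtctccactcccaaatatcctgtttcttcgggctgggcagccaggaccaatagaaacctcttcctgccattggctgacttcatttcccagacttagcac
The Ldb1 window held 2 GATAA matches, of which the first shares a base with a MYB match that in turn overlaps an E-box. The Erg window held 1 E-box and 1 GATAA, the Lyl1 window 1 E-box and 1 CCGGAAG, and the Tal1 window 1 GATAA. Over all 13 member windows, GATAA occurred in 3, against 22.6% of 32851 windows of all genes, and the E-box in 3, against 44.8%. CCGGAAG occurred in 1 member window (6.91% of all windows), AACNGTT in 1 (3.80%) and TGTGGT in 0 (14.0%). A match is only a run of letters and says nothing on whether a protein was bound there.

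None of the 9 genes passed the test in any comparison of the 3 populations, and the largest difference between 2 means of a member was 0.60 on the log2 scale. All values are log2 RMA signals (RMA corrects background, normalizes arrays and summarises probes), differences are differences of log2 means, and a gene was called at a limma adjusted p under 0.05 over all 17576 genes. Of the 9 members, 0 were called in MPP minus LT-HSC, where 0.125% of all tested genes were called (0.00569% higher and 0.119% lower). In ST-HSC minus LT-HSC 0 members were called, beside 0.933% of all genes (0.848% higher and 0.0853% lower), and in MPP minus ST-HSC 0 members, beside 0.193% (0.0683% higher and 0.125% lower). At an unadjusted p under 0.05, limma passed 0, 1 and 0 members in these comparisons, against 10.6%, 11.1% and 6.89% of all genes. The limma F test over the 3 populations called 0 of 9 members (0.905% of all genes), and 1, Tal1, had an unadjusted p under 0.05 (10.5% of all genes). The members' differences lay between -0.29 and 0.40 in MPP minus LT-HSC, between -0.46 and 0.60 in ST-HSC minus LT-HSC and between -0.41 and 0.46 in MPP minus ST-HSC. Their medians were 0.07, -0.06 and 0.32, beside medians of 0.06, 0.02 and 0.01 over all tested genes. A p that misses the threshold does not show equal levels, and the 95% intervals reached up to 1.13, 1.10 and 1.03 from 0 on the log2 scale. In bulk RNA of sorted cells, less RNA per cell and fewer cells that express a gene cannot be told apart.

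**Figure D1:**
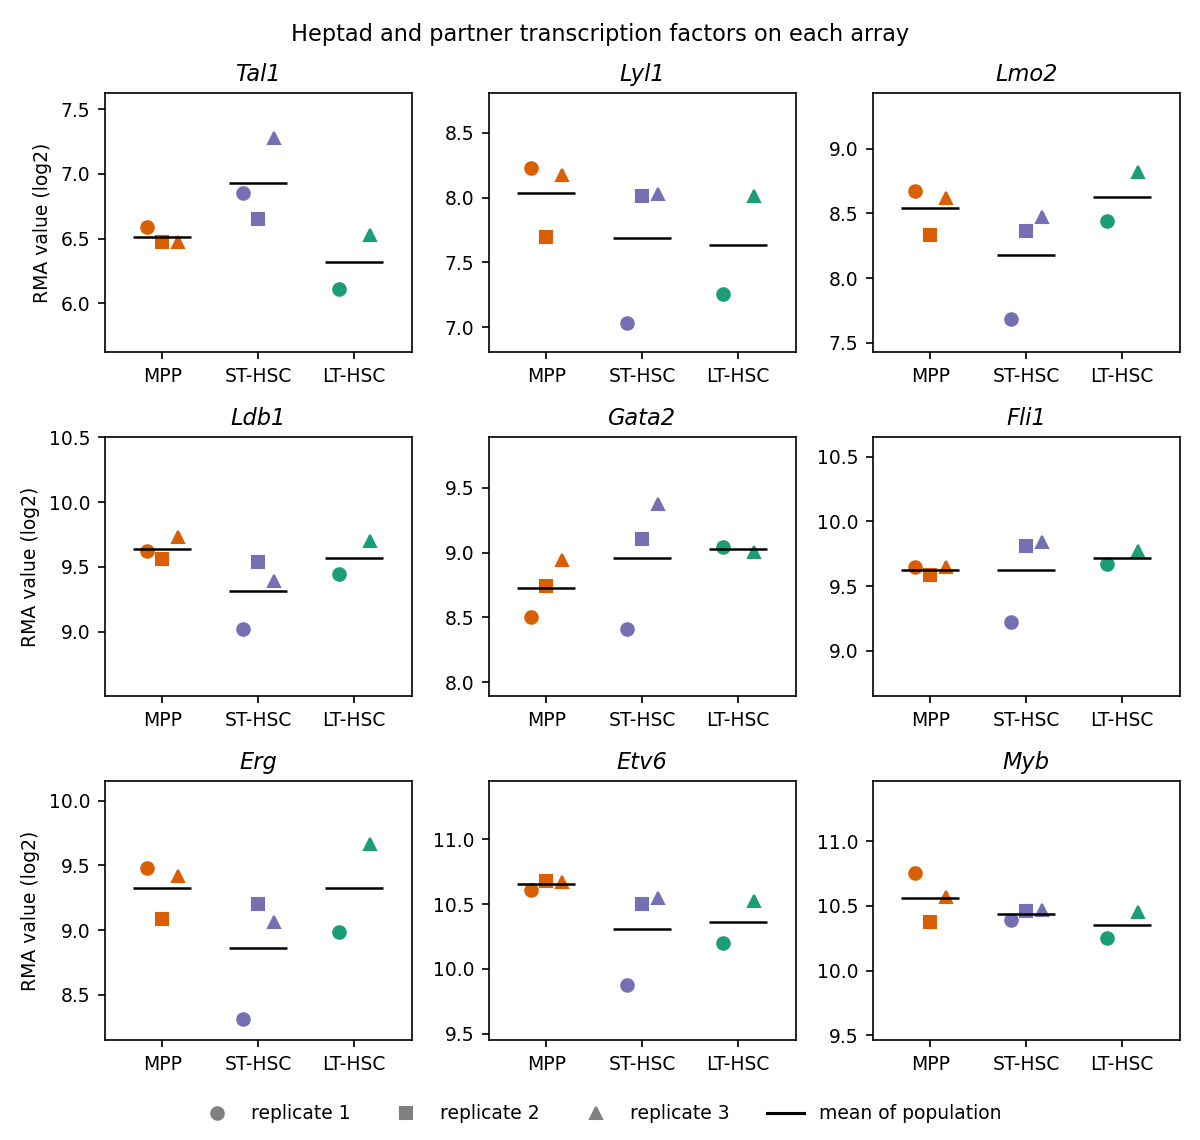
RMA value (log2) of each of the 9 genes on each array, with the populations MPP, ST-HSC and LT-HSC along the horizontal axis, marker shapes for the replicate numbers and a black line for the population mean. Each panel spans the same 2 log2 units around the gene's own mean, and in 7 of the panels the lowest point is ST-HSC replicate 1.

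Tal1, the helix-loop-helix factor needed to form blood stem cells, was the member whose populations differed most by the F test, with its highest level in ST-HSC. Tal1 read 6.59, 6.47 and 6.48 in MPP replicates 1, 2 and 3, then 6.85, 6.65 and 7.28 in ST-HSC replicates 1, 2 and 3, and 6.11 and 6.53 in LT-HSC replicates 1 and 3. All 3 ST-HSC arrays lay above every MPP and every LT-HSC array, while MPP and LT-HSC overlapped. Tal1 averaged 6.51 ± 0.07 in MPP, 6.93 ± 0.32 in ST-HSC and 6.32 ± 0.30 in LT-HSC (SD, n = 3, 3 and 2). ST-HSC minus LT-HSC was 0.60 (SE 0.22, 95% interval 0.13 to 1.08), with a limma adjusted p of 0.321 over all genes and an unadjusted p of 0.0173. In MPP minus ST-HSC Tal1 differed by -0.41 (SE 0.19), with a limma adjusted p of 0.752, and for MPP minus LT-HSC it was 0.19 (SE 0.22), with 0.731. Under all alternatives the ST-HSC minus LT-HSC difference stayed positive, at 0.40 to 0.81, and its limma adjusted p lay between 0.0823 and 0.870.

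Lyl1, the paralog of Tal1 that can partly stand in for it in adult stem cells, did not follow the same order. Lyl1 read 8.23, 7.69 and 8.17 in MPP, 7.03, 8.01 and 8.03 in ST-HSC and 7.25 and 8.01 in LT-HSC. The arrays of the populations overlapped, and the low values were those of ST-HSC replicate 1 and LT-HSC replicate 1. The means were 8.03 ± 0.29 in MPP, 7.69 ± 0.57 in ST-HSC and 7.63 ± 0.54 in LT-HSC (SD, n = 3, 3 and 2). The interval reaching furthest from 0 among the members was that of Lyl1 in MPP minus LT-HSC, 0.40 with a 95% interval of -0.33 to 1.13 (limma adjusted p = 0.638). MPP minus ST-HSC was 0.34 over all arrays and 0.01 without ST-HSC replicate 1.

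The bridging proteins Lmo2 and Ldb1 had their lowest means in ST-HSC. Lmo2 read 8.67, 8.34 and 8.62 in MPP, 7.69, 8.36 and 8.48 in ST-HSC and 8.44 and 8.82 in LT-HSC. Ldb1 read 9.62, 9.56 and 9.73 in MPP, 9.02, 9.54 and 9.39 in ST-HSC and 9.44 and 9.70 in LT-HSC. For Ldb1 all MPP arrays lay narrowly above all ST-HSC arrays, and the other pairs of populations overlapped. The ST-HSC minus LT-HSC difference of Lmo2 was -0.45 (SE 0.25, limma adjusted p = 0.534), and its MPP minus ST-HSC difference was 0.37 (SE 0.22, limma adjusted p = 0.921). Without ST-HSC replicate 1 these became -0.21 and 0.12. For Ldb1 the differences were -0.25 (SE 0.20, limma adjusted p = 0.664) and 0.32 (SE 0.18, limma adjusted p = 0.863), or -0.10 and 0.17 without that array.

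Gata2, the zinc finger factor required for stem cell maintenance, was lower in every MPP array than in either LT-HSC array, but by less than the test could separate. It read 8.50, 8.74 and 8.94 in MPP, 8.41, 9.10 and 9.37 in ST-HSC and 9.04 and 9.01 in LT-HSC. The LT-HSC arrays were nearly equal, whereas ST-HSC held both the lowest and the highest Gata2 value. The means were 8.73 ± 0.22 in MPP, 8.96 ± 0.50 in ST-HSC and 9.02 ± 0.03 in LT-HSC (SD, n = 3, 3 and 2). MPP minus LT-HSC was -0.29 (SE 0.26, 95% interval -0.87 to 0.28, limma adjusted p = 0.662). MPP minus ST-HSC was -0.23 (limma adjusted p = 0.999), or -0.51 without ST-HSC replicate 1 (limma adjusted p = 0.691). ST-HSC minus LT-HSC was -0.06, and without that array it was 0.21.

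Among the ETS factors, the Fli1 arrays lay close together in MPP and LT-HSC, and Erg had the widest range over all arrays. Fli1, an activator of stem cell and megakaryocyte genes, read 9.65, 9.59 and 9.65 in MPP, 9.22, 9.81 and 9.84 in ST-HSC and 9.67 and 9.77 in LT-HSC. The MPP arrays were all below the LT-HSC arrays, with a difference of -0.09 (SE 0.21, 95% interval -0.55 to 0.37, limma adjusted p = 0.868). Erg, which stem cells need for self-renewal, read 9.48, 9.08 and 9.41 in MPP, 8.31, 9.20 and 9.06 in ST-HSC and 8.98 and 9.66 in LT-HSC. Its population means of 9.33 ± 0.21 in MPP, 8.86 ± 0.48 in ST-HSC and 9.32 ± 0.48 in LT-HSC (SD, n = 3, 3 and 2) had overlapping arrays. Erg had the largest difference of any member in MPP minus ST-HSC, 0.46 (SE 0.26, limma adjusted p = 0.868), which was 0.19 without ST-HSC replicate 1.

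Etv6, the ETS-family repressor, was higher in every MPP array than in any other array. It read 10.61, 10.68 and 10.67 in MPP, 9.87, 10.50 and 10.54 in ST-HSC and 10.20 and 10.53 in LT-HSC. The MPP arrays spread by 0.04 (SD), against 0.38 in ST-HSC and 0.23 in LT-HSC (n = 3, 3 and 2). For MPP minus LT-HSC the difference was 0.29 (SE 0.22), with a limma adjusted p of 0.621, and for MPP minus ST-HSC it was 0.35 (SE 0.20), with 0.892, or 0.13 without ST-HSC replicate 1. Myb, the proto-oncogene that drives progenitor proliferation, read 10.75, 10.38 and 10.56 in MPP, 10.39, 10.46 and 10.46 in ST-HSC and 10.25 and 10.45 in LT-HSC. Its arrays overlapped in all comparisons, with differences of 0.21 in MPP minus LT-HSC, 0.09 in ST-HSC minus LT-HSC and 0.13 in MPP minus ST-HSC (limma adjusted p = 0.638, 0.89 and 0.999). The other Myb probe set, 17231999, read 8.91, 8.41 and 8.60 in MPP, 8.34, 8.45 and 8.49 in ST-HSC and 8.28 and 8.45 in LT-HSC, and it too overlapped between MPP and each of the other populations.

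Taking all members, the arrays did not overlap for 3 of 9 genes in MPP minus LT-HSC (Gata2 and Fli1 lower, Etv6 higher), where 24.7% of all tested genes did not overlap (14.1% higher and 10.5% lower). They did not overlap for 1 of 9 in ST-HSC minus LT-HSC (Tal1 higher), against 23.3% of all genes (13.8% higher and 9.5% lower). In MPP minus ST-HSC they did not overlap for 3 of 9 (Tal1 lower, Ldb1 and Etv6 higher), against 14.2% (7.75% higher and 6.43% lower). Over so few genes these shares are read as a description alone.

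**Figure D2:**
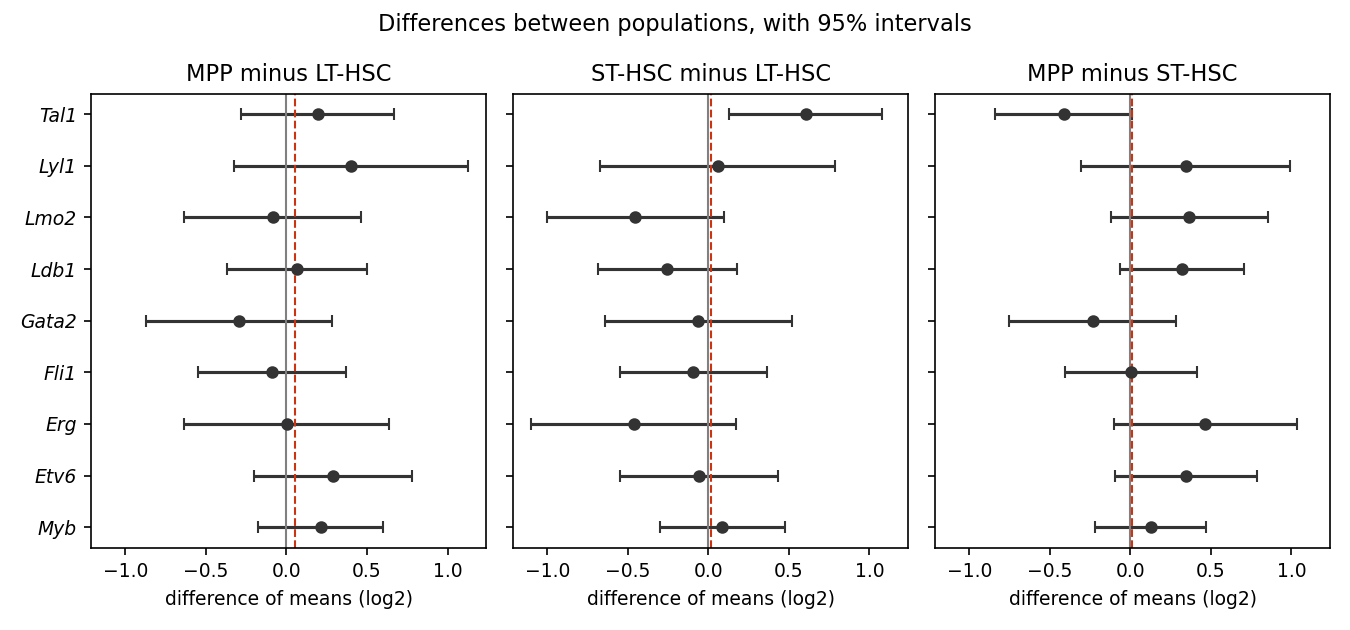
Difference of log2 means for each of the 9 genes in the 3 comparisons, with points for the estimate, bars for the 95% interval from limma, a grey line at 0 and a red dashed line at the median of all tested genes. Only the interval of Tal1 in ST-HSC minus LT-HSC, 0.13 to 1.08, lies to one side of 0.

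Most members were low on 1 array. ST-HSC replicate 1 held the lowest value of 7 of the 9 genes, all but Tal1 and Myb, and it was below the gene's mean over all arrays for 8 of 9. It was the lowest array for 15.9% of all tested genes, and for 20.0% of the 25% with the highest mean level. Against the mean of the other ST-HSC arrays the members' median was -0.65 there, beside -0.04 for all tested genes and -0.22 for that top 25%. The gap was -0.99 for Lyl1, -0.83 for Gata2, -0.82 for Erg, -0.73 for Lmo2, -0.65 for Etv6, -0.61 for Fli1 and -0.45 for Ldb1. For Tal1 it was -0.12 and for Myb -0.07. Low values there were not particular to the members. Among tested partner genes, Runx1, Meis1, Spi1, Tcf4, Ssbp2, Ssbp3, Gfi1, Ep300, Crebbp and Sp1 were also lowest on ST-HSC replicate 1. Only Gata1, Gfi1b and Hdac2 among the partners were highest there. Among tested paralogs, Spi1, Gata3, Elf4, Elk1, Elk3, Elk4, Ets2, Etv3 and Etv5 were lowest on this array. The paralogs Gata1, Gata4, Lhx2, Lmo1 and Mybl2 were highest on it. This array also had a narrow interquartile range, 2.73 against 2.49 to 3.06 over all arrays. The array of the narrowest range, LT-HSC replicate 1, was the lowest for 66.4% of genes in the top 25% but for 2 of the 9 members, Tal1 and Myb.

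**Figure D3:**
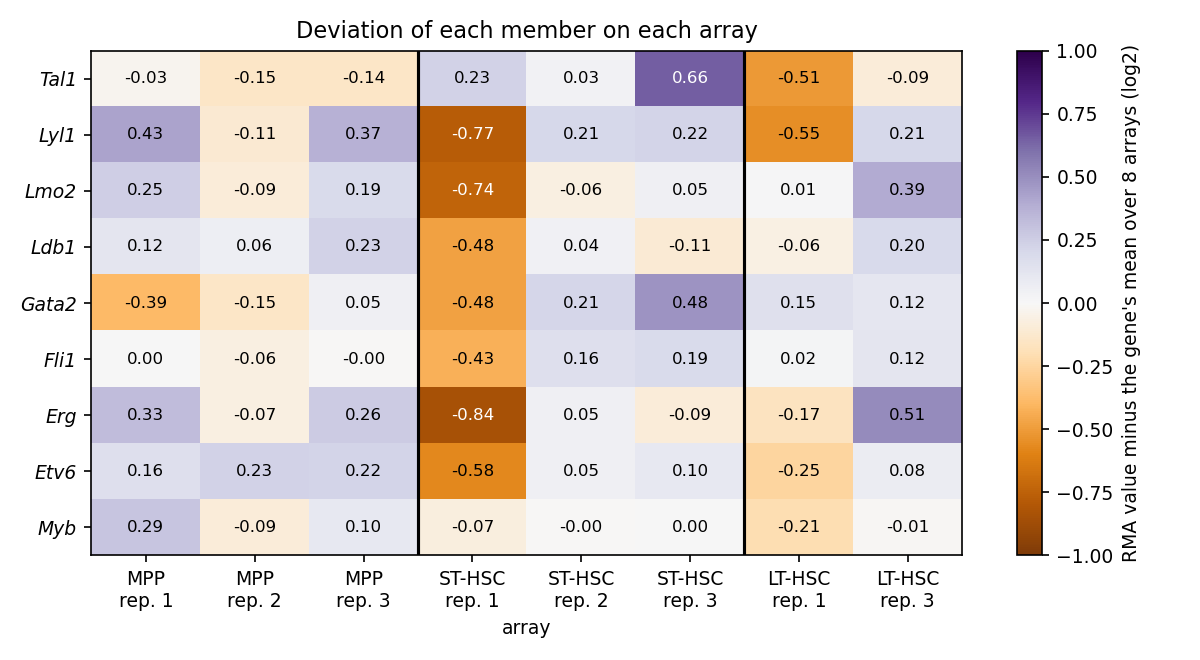
Deviation of each of the 9 genes on each array from the gene's own mean over the 8 arrays (log2, colour scale and printed value), with arrays in columns, grouped as MPP, ST-HSC and LT-HSC. The column of ST-HSC replicate 1 is negative for 8 of the 9 genes, with Tal1 the exception.

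The averages of granulocyte and monocyte, erythroid, stroma and endothelium, and B cell markers were highest on the replicate 1 array of each population, ST-HSC replicate 1 among them. The 16 granulocyte and monocyte markers, all matched, averaged 5.98 to 6.98 in MPP, 5.73 to 7.50 in ST-HSC and 5.50 to 7.17 in LT-HSC, and 11 of the 16 had their highest value in ST-HSC replicate 1. The highest average of each population was that of its replicate 1, and 15 of the 16 were highest in a replicate 1 array of some population. The gap within LT-HSC, from 5.50 in replicate 3 to 7.17 in replicate 1, was about as wide as that within ST-HSC. S100a8, a neutrophil protein, read 10.60, 9.53 and 9.86 in MPP, 11.29, 9.32 and 8.26 in ST-HSC and 11.09 and 6.61 in LT-HSC. The 7 matched erythroid markers of 12 averaged 6.47 to 7.74 in MPP, 6.84 to 8.30 in ST-HSC and 7.02 to 7.31 in LT-HSC, and all 7 were highest in ST-HSC replicate 1. The 14 stroma and endothelium markers averaged 5.44 to 5.99 in MPP, 5.44 to 6.84 in ST-HSC and 5.49 to 5.93 in LT-HSC, with 9 of 14 highest in ST-HSC replicate 1 and 11 in some replicate 1 array. The 8 matched B cell markers of 9 averaged 4.53 to 5.04 and the 10 matched T and NK cell markers of 11 averaged 4.65 to 4.90 over all arrays. On an array such values are signals and not counts, so no marker can be called absent. The part of other cells in the low values of ST-HSC replicate 1 was not tested.

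As a check of the sort, Slamf1, which encodes the gate marker CD150, averaged 5.06 ± 0.36 in MPP, 7.34 ± 0.11 in ST-HSC and 7.77 ± 0.01 in LT-HSC (SD, n = 3, 3 and 2). Cd34 read 11.00, 10.85 and 10.92 in MPP, 9.55, 10.15 and 10.07 in ST-HSC and 8.50 and 10.20 in LT-HSC. LT-HSC replicate 3 thus lay above every ST-HSC array, and the Cd34 signal did not separate LT-HSC from ST-HSC. This limit bears on all ST-HSC minus LT-HSC differences. The gates name proteins, whereas these values are RNA signals, so an overlap in RNA does not show an overlap in the protein. Cd48, the remaining gate marker that separates MPP from the others, read 7.84, 6.65 and 6.96 in MPP, 7.49, 6.51 and 6.57 in ST-HSC and 5.92 and 6.63 in LT-HSC. Its arrays overlapped between MPP and ST-HSC, and ST-HSC replicate 1 lay above MPP replicates 2 and 3. The Cd48 signal thus did not separate MPP from ST-HSC. Every MPP array lay above both LT-HSC arrays, though MPP replicate 2 (6.65) only narrowly above LT-HSC replicate 3 (6.63).

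Over the 8 arrays, 15 of the 36 pairs of members had a Pearson correlation over 0.7, and without ST-HSC replicate 1, over 7 arrays, 5 had. These are descriptions over arrays that share populations and replicate numbers. The share of all gene pairs over 0.7 was not computed, so these counts have no background beside them. The closest pairs were Lmo2 with Erg (r = 0.97, or 0.90 without that array), Ldb1 with Erg (0.96, or 0.85) and Lmo2 with Ldb1 (0.92, or 0.65). Tal1 correlated with Lmo2, Ldb1 and Erg at -0.25, -0.40 and -0.25, or at -0.02, -0.33 and -0.05 without that array. With its paralog Lyl1 it correlated at 0.18, or 0.55 without that array. Gata2 was closest to Fli1 (r = 0.82, or 0.78 without that array), and Lyl1 correlated with Myb at 0.75 (0.87 without it). Fli1, which followed Lmo2 (0.80) and Erg (0.74) over all arrays, was at 0.07 and 0.02 with them without ST-HSC replicate 1.

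Among 14924 named genes outside the predicted and receptor genes, the ones most like each member over the 8 arrays had correlations of 0.93 to 0.99. Tal1 was most like the phosphomannomutase Pmm1 (r = 0.97) and the mitochondrial ribosomal gene Mrps2 (0.97), and Gata2 was most like Marveld1 (0.94) and Cdcp1 (0.93). Lyl1 was most like the microtubule-binding Mapre2 and Atxn7l1 (0.99 each), Etv6 most like H13 and the ETS factor Elk3 (0.99 each), and Ldb1 most like Lbh (0.99) and the interferon regulatory factor Irf2 (0.98). Lmo2 was most like the endosomal GTPase Rab5b (0.98) and the phosphodiesterase Pde1c (0.97), Fli1 most like Epm2aip1 (0.97) and Atp8b5 (0.96), Erg most like Cyp2j6 and Zfp493 (0.98 each), and Myb most like Cyb5r3 and Gid4 (0.98 each). With 8 arrays such values were common: between 10 genes (for Gata2) and 441 genes (for Lyl1) exceeded 0.9. Without ST-HSC replicate 1 the correlations named here ran from 0.81 (Fli1 with Atp8b5) to 0.98 (Myb with Cyb5r3). Lmo2 with Pde1c was at 0.89 without that array.

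The genes of proteins that work with the heptad did not pass either. Of 24 listed complex partners, 23 were tested and 0 were called in any comparison by limma. An unadjusted limma p under 0.05 was found for 0 in MPP minus LT-HSC, 2 in ST-HSC minus LT-HSC and 7 in MPP minus ST-HSC. The shares of all tested genes were 10.6%, 11.1% and 6.89%. Of the 7 partners, 4 were higher in MPP and 3 lower. The median differences of the 23 partners were 0.26, 0.09 and 0.19 in these comparisons. The remaining heptad factor, Runx1, read 9.04, 9.23 and 9.15 in MPP, 8.41, 9.19 and 9.08 in ST-HSC and 8.66 and 9.10 in LT-HSC, and ST-HSC replicate 1 was again the lowest array. The Runx1 differences were 0.26 in MPP minus LT-HSC, 0.01 in ST-HSC minus LT-HSC and 0.25 in MPP minus ST-HSC, with limma adjusted p of 0.677, 0.991 and 0.999. The most highly expressed partners were the homeobox factor Meis1 and the deacetylase Hdac2, which differed by 0.19 and -0.27 in MPP minus ST-HSC (limma adjusted p = 0.999 and 0.984).

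Replicate numbers were taken to pair the ST-HSC and MPP arrays, a pairing drawn from these same values and not stated by the labels. Calls in the block, here and below, are therefore a description alone. With the number as a block, 2 partners fell in MPP against ST-HSC, both of them regulators of erythroid and megakaryocyte genes. The block called 1.52% of all tested genes there (267 of 17576, against 34 without it), 0.893% in MPP minus LT-HSC and 2.69% in ST-HSC minus LT-HSC. Gata1, the erythroid and megakaryocyte relative of Gata2, read 5.84, 5.08 and 5.15 in MPP, 6.87, 5.96 and 5.94 in ST-HSC and 5.87 and 5.03 in LT-HSC. Every ST-HSC array exceeded every MPP array, with a difference of -0.90 in MPP minus ST-HSC (limma adjusted p = 0.447, or 0.0138 in the replicate block). The repressor Gfi1b read 8.77, 7.83 and 8.27 in MPP, 9.50, 8.90 and 9.27 in ST-HSC and 8.95 and 8.60 in LT-HSC, and differed by -0.93 (limma adjusted p = 0.221, or 0.0124 in the replicate block). Both were singled out after their values were seen. No member was called in the block fit, where the smallest limma adjusted p was 0.119, for Tal1 in ST-HSC minus LT-HSC.

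Of 28 listed paralogs, 24 were tested and 0 were called in any comparison. In MPP minus LT-HSC, ST-HSC minus LT-HSC and MPP minus ST-HSC, 2, 4 and 3 had an unadjusted limma p under 0.05. The shares of all tested genes were 10.6%, 11.1% and 6.89%. The paralogs' medians were 0.10, 0.02 and 0.03. Gata1 is on this list too and was the 1 gene called in the replicate block for MPP minus ST-HSC. The most highly expressed, the ETS factors Elf1 and Elk3, had MPP minus LT-HSC differences of 0.45 and 0.39 (limma adjusted p of 0.523 and 0.591). Of 6 listed inhibitors of helix-loop-helix factors, namely the ID genes, Hes1 and Hey1, 0 were called by limma and 0 had an unadjusted p under 0.05 in any comparison, with medians of -0.24, -0.11 and -0.15. In the replicate block, Hey1 rose in MPP against ST-HSC by 0.90 (limma adjusted p = 0.0407, against 0.979 without the block). Hey1 was not called with the block fitted on these groups alone or with a covariate for replicate 1.

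Among 22 tested genes described as heptad targets, Itga2b, the integrin alpha chain CD41 of megakaryocytes and platelets, was called in both comparisons with ST-HSC. It read 6.32, 6.33 and 6.55 in MPP, 7.55, 7.52 and 7.64 in ST-HSC and 6.48 and 6.30 in LT-HSC. The ST-HSC arrays stood about 1 log2 unit above all others. Itga2b fell in MPP against ST-HSC by 1.17 (SE 0.15, limma adjusted p = 0.0141) and was higher in ST-HSC than in LT-HSC by 1.18 (SE 0.17, limma adjusted p = 0.00814), where 0.125% of all genes were called lower and 0.848% higher. The call in MPP minus ST-HSC was lost with median centring and when any one of ST-HSC replicates 2 and 3 or MPP replicates 1, 2 and 3 was left out. The call in ST-HSC minus LT-HSC was lost with array weights, when LT-HSC replicate 1 or ST-HSC replicate 3 was left out, and when both replicate 1 arrays of these groups were left out. Over all settings, those that kept the call included, the differences lay between -1.25 and -1.10 in MPP minus ST-HSC (limma adjusted p up to 0.0973) and between 1.09 and 1.29 in ST-HSC minus LT-HSC (up to 0.0923).

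The other 21 tested targets were not called. Of all 22, Itga2b included, 4 in MPP minus LT-HSC, 3 in ST-HSC minus LT-HSC and 9 in MPP minus ST-HSC had an unadjusted limma p under 0.05. The shares of all tested genes were 10.6%, 11.1% and 6.89%. Of the 9, 8 were lower in MPP (Gfi1b, Zfpm1, Itga2b, Tek, Kdr, Epor, Hemgn and Esam) and 1 was higher (Cd34). In the replicate block, Gfi1b (above) and the endothelial and stem cell receptor Tek also fell in MPP against ST-HSC, Tek by 1.19 (limma adjusted p = 0.0113, or 0.0837 without the block). Kit and Cd34, the most highly expressed targets, differed by 0.15 and 1.00 in MPP minus ST-HSC (limma adjusted p = 0.999 and 0.456), and both are gate markers. The list's medians were -0.02 in MPP minus LT-HSC, 0.10 in ST-HSC minus LT-HSC and -0.12 in MPP minus ST-HSC. Of 9 tested genes described as MYB targets, 0 were called in any comparison, and the medians were 0.35, 0.26 and 0.14. An unadjusted limma p under 0.05 was found for 3, 1 and 3 of them, against 10.6%, 11.1% and 6.89% of all tested genes. In the replicate block the progenitor factor Sox4 rose in MPP against ST-HSC by 0.97 (limma adjusted p = 0.0194, or 0.141 without the block).

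**Figure D4:**
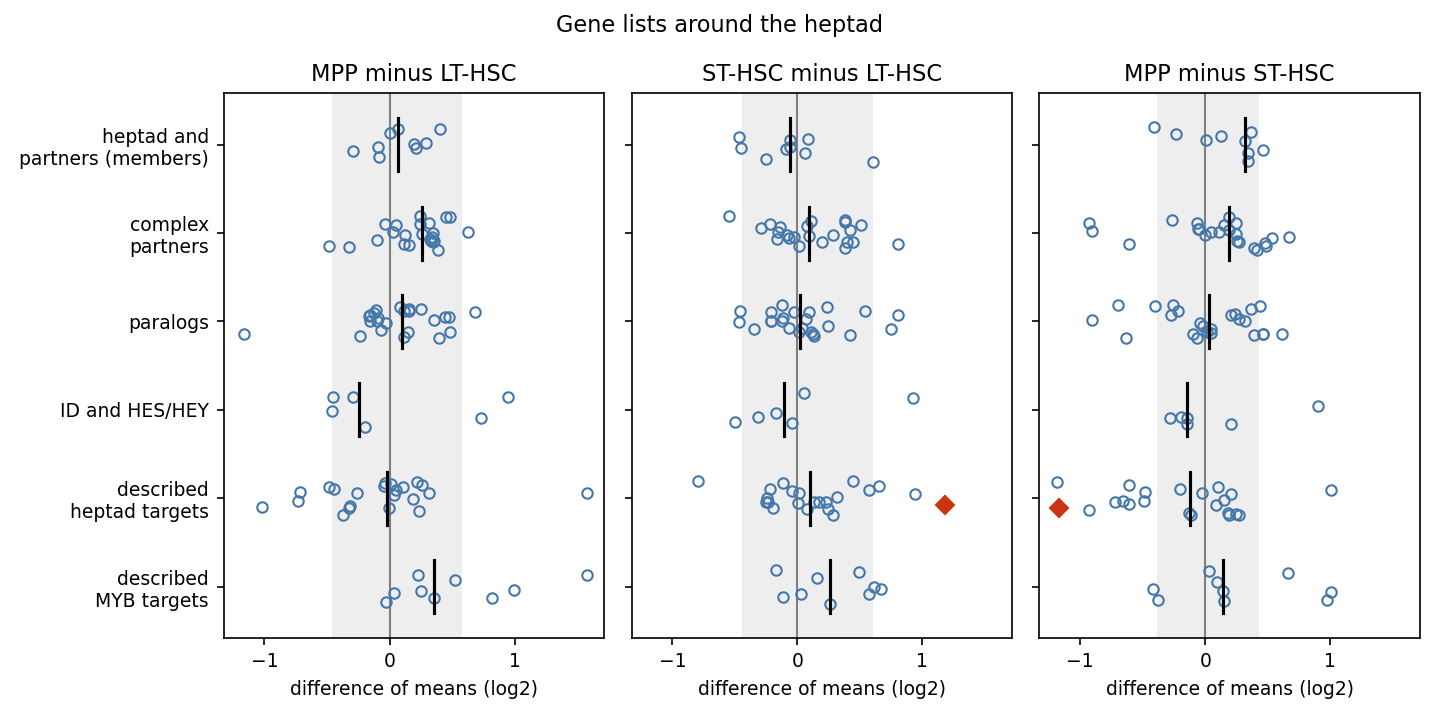
Difference of log2 means of the 9 genes and of 5 gene lists around the heptad in the 3 comparisons. Open circles are genes not called, red diamonds are genes called by limma, black bars are list medians and the grey band runs from the 5th to the 95th percentile of all tested genes. The single called gene is Itga2b, at 1.18 in ST-HSC minus LT-HSC and -1.17 in MPP minus ST-HSC.

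The average of the megakaryocyte markers was highest in ST-HSC, as were Tal1 and Itga2b. The 8 matched markers of 10, Itga2b among them, averaged 5.99 to 6.36 in MPP, 7.04 to 7.74 in ST-HSC and 6.59 to 6.80 in LT-HSC. The populations did not overlap on this average, which was lowest in MPP, whereas Tal1 had its lowest mean in LT-HSC. Within ST-HSC the marker average was highest in replicate 1 and Tal1 in replicate 3. Not every marker was highest in ST-HSC, since Vwf, which encodes von Willebrand factor, read 5.33, 5.19 and 5.67 in MPP, 6.91, 6.27 and 6.20 in ST-HSC and 7.20 and 7.22 in LT-HSC. Whether cells carrying these markers contributed to the Tal1 values was not tested.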

How the data were processed

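Gene expression was measured on 8 single-colour arrays. Per the labels, Trizol was used for extraction, and RNA was amplified with the Ovation Pico WTA System V2 and labelled with the Encore Biotin Module. The deposited log2 values were made by the authors with RMA, per the submitters' processing notes. Its version is not given in the sources used here, and the values themselves show the log2 scale. RMA compresses differences of dim probe sets, and the number of arrays limits the precision.

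Of 33649 probe sets, 23521 had 1 gene symbol in the platform annotation, 1814 had several and 8314 were unnamed here. Each of the 22180 genes was represented by its probe set of highest mean and tested where that mean was at least 3.88, the 25th percentile. One linear model was fitted over all arrays (limma 3.58.1, R 4.3.3), with 5 residual and 5.93 prior degrees of freedom and Benjamini-Hochberg adjustment over 17576 genes, and was checked on simulated data. No pair of arrays held identical values.

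The members and lists were chosen with earlier results of these data known. Named were all members, up to 4 called and the 2 most highly expressed uncalled genes per list, the 2 genes most correlated with each member, Slamf1, Cd34 and S100a8, and other names were chosen after their values were seen. The labels share replicate numbers but state no pairing. Deviations from the group means correlated between ST-HSC and MPP at 0.15, 0.23 and 0.21 for replicates 1, 2 and 3. The pairing rests on these values, which come from the same data as the block calls. Unlike numbers gave -0.28 to 0.07 between ST-HSC and MPP. Deviations cancel out within a population, so positive same-number values push the unlike-number values down, and this contrast is partly fixed in advance. Between LT-HSC and MPP the same-number values were -0.16 and 0.10 for replicates 1 and 3. Between LT-HSC and ST-HSC they were 0.54 and 0.47. With only 2 LT-HSC arrays, the deviations of replicate 3 mirror those of replicate 1, so these are not separate checks of pairing. LT-HSC replicate 1 with MPP replicate 2 gave 0.22, about as high as the values taken as pairing. The unlike pair of LT-HSC replicate 3 with ST-HSC replicate 2 gave 0.32, above every value taken as pairing. LT-HSC is not taken as paired with MPP. Alternatives covered the filter, scaling, replicate block, array weights, intensity trend, probe set choice, samples in the fit and a covariate for replicate 1.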

Additional observations from a re-analysis of the deposited data

How the results depend on the processing

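The count of 0 members called held in all 3 comparisons and in the F test under every one of the 21 alternatives that could give it, the smallest limma adjusted p being 0.0823. Of 27 member differences, 14 kept their sign throughout, among them all of Tal1 in ST-HSC comparisons. Median centring shifted the median of all genes by about as much as these small differences (0.18 in MPP minus LT-HSC and 0.13 in ST-HSC minus LT-HSC, against 0.06 and 0.02). The reversed values did not pass in either sign. In MPP minus LT-HSC, leaving out 1 array gave -0.016 to 0.40 for Tal1, -0.063 to 0.20 for Ldb1, -0.34 to 0.34 for Erg and -0.28 to 0.10 for Lmo2. In ST-HSC minus LT-HSC it gave -0.32 to 0.44 for Lyl1, -0.011 to 0.19 for Myb, -0.22 to 0.16 for Etv6, -0.27 to 0.21 for Gata2 and -0.20 to 0.11 for Fli1, and in MPP minus ST-HSC -0.20 to 0.11 for Fli1. Quantile normalization turned Ldb1 (-0.042) and Erg (-0.13) in MPP minus LT-HSC and Lyl1 (-0.092) and Myb (-0.072) in ST-HSC minus LT-HSC. Median centring turned Lmo2 (0.037) and Fli1 (0.032) in MPP minus LT-HSC and Gata2 (0.048), Fli1 (0.016) and Etv6 (0.054) in ST-HSC minus LT-HSC. Array weights turned Gata2 (0.11), Fli1 (0.042) and Etv6 (0.089) in ST-HSC minus LT-HSC and Fli1 (-0.12) in MPP minus ST-HSC. The replicate block turned Erg (-0.024) in MPP minus LT-HSC, and the covariate for replicate 1 turned Erg (-0.066) there and Lyl1 (-0.020) in ST-HSC minus LT-HSC. Without both arrays that stood apart, LT-HSC replicate 1 and ST-HSC replicate 1, Tal1 (-0.016), Ldb1 (-0.063) and Erg (-0.34) turned in MPP minus LT-HSC, Gata2 (0.23) and Fli1 (0.058) in ST-HSC minus LT-HSC and Fli1 (-0.20) in MPP minus ST-HSC. Without all replicate 1 arrays, a setting chosen after seeing the data, Tal1 (-0.055), Lyl1 (-0.078), Ldb1 (-0.055) and Erg (-0.41) turned in MPP minus LT-HSC, Gata2 (0.23) and Fli1 (0.058) in ST-HSC minus LT-HSC, and Lyl1 (-0.086) and Fli1 (-0.21) in MPP minus ST-HSC. The cause of these turns was not tested.

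The counts of called list genes moved more. In MPP minus LT-HSC the replicate block called 1 paralog (Ldb2), 1 heptad target and 1 MYB target (Cd34 for both), and the intensity trend and the covariate for replicate 1 called 1 paralog each. In ST-HSC minus LT-HSC the block called 1 partner, 1 paralog (Gata1 for both), 1 inhibitor (Hes1) and 3 heptad targets, the covariate 1 partner and 1 paralog, while array weights and leaving out both arrays that stood apart left 0 heptad targets. In MPP minus ST-HSC the replicate block called 2 partners, 1 paralog, 1 inhibitor, 3 heptad targets and 1 MYB target. The block within these groups alone, also chosen after seeing the data, called 2, 1, 0, 4 and 2. The covariate called 2, 1, 0, 3 and 1, and array weights 3, 1, 0, 6 and 3. Of all 17576 tested genes, array weights called 525 there, the most of any setting, and the replicate block 267. The reported fit called 34, so these list counts are a description alone. Heptad targets numbered 0 with median centring, 2 without both arrays that stood apart and 2 without all replicate 1 arrays. Leaving out 1 array gave 0 to 1 partners, paralogs and heptad targets and 0 to 3 MYB targets in MPP minus LT-HSC, 0 to 1 partners, 0 to 2 heptad targets and 0 to 2 MYB targets in ST-HSC minus LT-HSC, and 0 to 2 heptad targets in MPP minus ST-HSC. Over all genes the calls ranged from 5 to 615 in MPP minus LT-HSC (22 in the reported fit), from 0 to 825 in ST-HSC minus LT-HSC (164) and between 1 and 525 in MPP minus ST-HSC (34), with both maxima against LT-HSC reached without LT-HSC replicate 3. The block changed no member's call, and its calls against LT-HSC use numbers not shown to pair LT-HSC with MPP. Fits without an LT-HSC array assume that the lone LT-HSC array varies like the other groups. Signal over background was not analysed here.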

Other observations

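Several inhibitors of helix-loop-helix factors were low on the replicate 1 arrays. Id3, which sequesters the E protein partners of TAL1 and LYL1, read 5.14, 7.95 and 7.09 in MPP replicates 1, 2 and 3, then 5.68, 7.65 and 7.43 in ST-HSC replicates 1, 2 and 3, and 5.29 and 6.71 in LT-HSC replicates 1 and 3. Id1 read 5.94, 6.61 and 7.04 in MPP, 6.19, 6.84 and 7.40 in ST-HSC and 6.25 and 7.72 in LT-HSC. Hey1, a Notch target, read 7.23, 9.97 and 8.43 in MPP, 6.76, 8.48 and 7.70 in ST-HSC and 6.87 and 8.32 in LT-HSC. Hes1, another Notch target, read 8.92, 10.37 and 9.96 in MPP, 8.40, 10.37 and 9.86 in ST-HSC and 9.55 and 10.53 in LT-HSC. For these 4 of the 6 listed inhibitors the replicate 1 array was the lowest in every population, as it was for 10.6% of all 17576 tested genes and for 1 of the 9 heptad members and partners, Etv6. Id2 read 6.70 to 6.99 in MPP, 6.98 to 7.08 in ST-HSC and 6.95 to 7.70 in LT-HSC and did not follow this pattern. The pattern was noticed in these values, and no test was made of it.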
